A study of Homo sapiens with 6 samples.

Results

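The genes described here are 10 identity markers of mesothelium and mesothelioma, MSLN, WT1, CALB2, UPK3B, PDPN, MUC16, HEG1, LRRN4, KRT5 and ITLN1. They were taken by gene name from a table of 58735 genes, and all 10 had a row. RNA was sequenced from H2452, an established pleural mesothelioma (PM) cell line, in 3 libraries with a scrambled sgRNA (sgCtrl, genotype WT in the labels) and 3 libraries with an sgRNA against NF2 (sgNF2-1, labelled NF2-KO). Both groups carried the same lentiviral vector with Cas9 and the mCherry reporter, were sorted for mCherry and grew in RPMI-1640 with serum and antibiotics, so the vector and the sort were shared by the controls. The sources used here do not say whether the edited cells descend from 1 clone. The study describes its replicates in general as biological, but the labels do not tie the libraries of a group to separate cultures, and p-values measure the spread between these libraries only. The labels call the source tumor, but the material was a cell line.

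The mesothelium is the flat cell layer that lines the pleura, pericardium and peritoneum, and PM arises from it. Pathologists recognise mesothelial cells by antibodies against surface glycoproteins such as mesothelin (MSLN) and podoplanin (PDPN), against the nuclear factor WT1 and against the calcium-binding protein calretinin (CALB2), read beside antigens of carcinoma. NF2 encodes merlin, a membrane-associated relative of ezrin, radixin and moesin that acts upstream of the Hippo pathway and is often lost in mesothelioma.

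The libraries held 14782423 to 17416463 counts each, and 14179 genes had enough counts for edgeR's quasi-likelihood test. Levels are given as CPM, a gene's count scaled to 1e6 counts of its library's TMM-adjusted total, and, between genes, as FPKM, which also divides by gene length. A difference passed at a Benjamini-Hochberg adjusted p under 0.05 over all tested genes. NF2 itself had 1162, 1197 and 1025 counts in sgCtrl and 692, 802 and 590 in sgNF2-1, with a log2 fold change of -0.69 (SE 0.10, adjusted p = 7.9e-06 by edgeR), so its transcript was lower in the labelled knockout but not lost. Protein was not analysed here. In bulk RNA, fewer cells expressing a gene and less RNA per cell cannot be told apart.

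Of the 10 markers, 6 could be tested. MSLN rose in sgNF2-1, while PDPN, WT1 and HEG1 fell. CALB2 and UPK3B, with log2 fold changes of -0.51 and -0.38, did not pass. Thus 4 of 6 passed where 34.3% of all tested genes passed. One marker (1 of 6) was higher, where 17.7% of tested genes were, and 3 of 6 were lower, where 16.6% were. The CPM values of the groups did not overlap for 5 of the 6, against 45.3% of tested genes. The median log2 fold change of the 6 was -0.45 and that of all tested genes was -0.0025. The other 4, LRRN4, KRT5, MUC16 and ITLN1, had too few counts in both groups.

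The markers spanned a wide range of levels per length. In sgCtrl, HEG1 was highest at 35.3 ± 3.50 FPKM (SD, n = 3), followed by PDPN at 17.4 ± 0.846 FPKM and MSLN at 13.5 ± 1.09 FPKM, and the libraries of these neighbours did not overlap. CALB2 at 2.41 ± 0.223 FPKM and WT1 at 2.31 ± 0.328 FPKM overlapped. UPK3B lay below both, at 0.825 ± 0.156 FPKM, and LRRN4, KRT5, MUC16 and ITLN1 were all under 0.12 FPKM in every library. In sgNF2-1 the order was HEG1 at 27.7 ± 1.98 FPKM, MSLN at 21.1 ± 2.42 FPKM, PDPN at 7.11 ± 1.01 FPKM, CALB2 at 1.66 ± 0.271 FPKM, WT1 at 1.11 ± 0.176 FPKM and UPK3B at 0.633 ± 0.349 FPKM. There, MSLN stood above PDPN without overlap, the reverse of sgCtrl, CALB2 stood above WT1 without overlap, and WT1 and UPK3B overlapped.

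**Figure D1:**
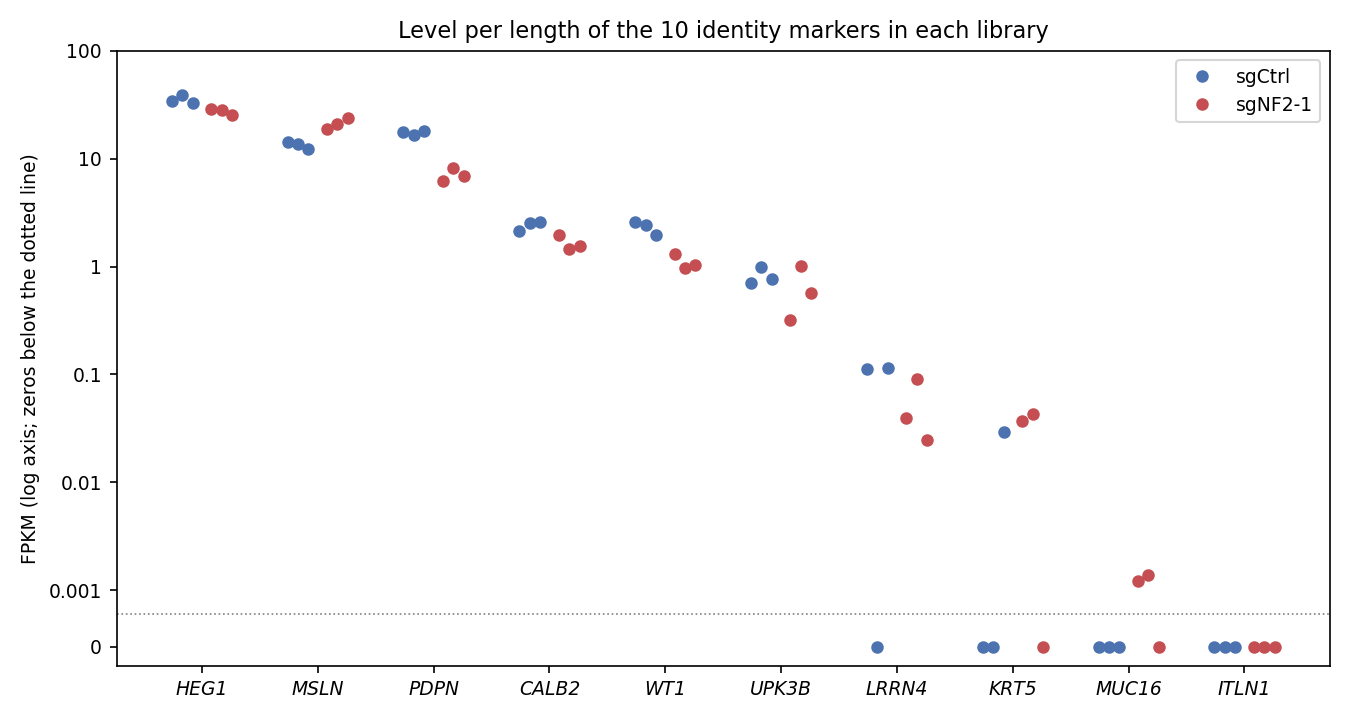
FPKM of the 10 markers in each of the 3 sgCtrl (blue) and 3 sgNF2-1 (red) libraries, on a log axis with libraries at 0 drawn below the dotted line. HEG1, MSLN and PDPN lie between 6.20 and 39.3 FPKM, and MSLN and PDPN exchange places between the groups.

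Bases upstream of 2 markers that fell, WT1 and HEG1, are shown because they lie outside the transcribed span that the deposited table gives these genes. Both come from RefSeq promoter windows of 300 bases (GRCh38.p14), which hold 250 bases before and 50 after a transcription start. Entries were found for 7 of the 10 markers. The sequences run 5′ to 3′ on the gene's strand, and the capitals mark GC boxes, GGGCGG or its complement CCGCCC, the letters bound by SP-family factors. The WT1 bases (159, chr11:32435631-32435789, minus strand) hold 1 GC box and the HEG1 bases (250, chr3:125055998-125056247, minus strand) hold 3. The WT1 bases lie within the span of the antisense gene WT1-AS (32435518 to 32458769, plus strand).
WT1: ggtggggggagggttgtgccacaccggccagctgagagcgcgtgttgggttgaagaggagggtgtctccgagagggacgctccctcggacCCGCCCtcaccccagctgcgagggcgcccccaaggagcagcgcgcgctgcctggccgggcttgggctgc
HEG1: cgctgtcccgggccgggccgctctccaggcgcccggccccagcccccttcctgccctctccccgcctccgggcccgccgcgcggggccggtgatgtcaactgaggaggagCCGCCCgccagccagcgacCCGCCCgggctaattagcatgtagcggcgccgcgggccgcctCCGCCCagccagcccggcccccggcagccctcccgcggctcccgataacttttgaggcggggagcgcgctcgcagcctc
Both stretches were rich in G and C, at 73.0% for WT1 and 78.4% for HEG1. The WT1 box began 160 bases before the RefSeq start, and the HEG1 boxes began 140, 121 and 79 bases before it. A GC box was present in 45.0% of 35116 promoter windows on either strand. GGAATG or its complement CATTCC, the core letters bound by the TEAD factors through which YAP and TAZ act, was present in 14.0% of them. These letters were not in the window nearest the deposited gene start of WT1, HEG1, PDPN or UPK3B. They occurred 2 times in another of the 4 WT1 windows (chr11:32400351-32400650) and 1 time in the window of ITLN1, a gene with 0 counts. The PDPN and UPK3B windows nearest the deposited gene start each held 1 GC box. Another of the 3 PDPN windows (chr1:13585210-13585509) held 0. A match of letters is a description and not a binding site.

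Mesothelin is a GPI-anchored surface glycoprotein that is cut from a longer precursor and binds the mucin MUC16. MSLN (ENSG00000102854, chromosome 16, 760762 to 768865, plus strand, hg38) had 611, 610 and 503 counts in sgCtrl replicates 1 to 3 and 906, 875 and 921 in sgNF2-1. Relative to library size these were 38.8, 37.2 and 33.1 CPM in sgCtrl and 51.5, 56.7 and 64.7 CPM in sgNF2-1. Every sgNF2-1 library was above every sgCtrl library. The mean rose from 36.4 ± 2.89 to 57.6 ± 6.64 CPM (SD, n = 3 each), 1.58-fold. The log2 fold change was 0.66 (SE 0.10, 95% interval 0.45 to 0.87, adjusted p = 1.7e-05 by edgeR), and it ranked 903 from the highest among tested genes. An exact two-sided permutation test on the difference of mean log2 CPM gave p = 0.10, which 3 against 3 libraries cannot go below. The same holds for PDPN, WT1, HEG1 and CALB2.

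MUC16, the very large mucin that carries the CA125 antigen and is the binding partner of mesothelin, was all but undetected. It had 0 counts in all sgCtrl libraries and 1, 1 and 0 counts in sgNF2-1, on a gene length of 43830 bases in the table. In any library, a count of 0 allows up to 3 counts, which is 0.170 to 0.211 CPM across the libraries, and no difference was detectable at this depth. This floor covers counting error only. The related membrane mucin MUC1 fell, from 426, 420 and 396 counts to 213, 197 and 268, with a log2 fold change of -0.86 (SE 0.14, adjusted p = 3.2e-05 by edgeR). MSLNL, a gene next to MSLN that resembles it, had 1 to 21 counts per library.

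Podoplanin is a mucin-type sialoglycoprotein of mesothelial and lymphatic endothelial cells, recognised by the D2-40 antibody, whose cytoplasmic tail binds ezrin and moesin. PDPN (ENSG00000162493, chromosome 1, 13583465 to 13617957, plus strand) had 1093, 1051 and 1068 counts in sgCtrl and 431, 498 and 390 in sgNF2-1. This corresponds to 69.3, 64.0 and 70.4 CPM against 24.5, 32.3 and 27.4 CPM. The highest sgNF2-1 library lay well under the lowest sgCtrl library. Of the 6 tested markers PDPN had the largest change, from 67.9 ± 3.41 to 28.0 ± 3.93 CPM (SD, n = 3 each), 2.42-fold lower. Its log2 fold change was -1.28 (SE 0.10, 95% interval -1.49 to -1.06, adjusted p = 8.3e-10 by edgeR), at rank 264 from the lowest of all tested genes.

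HEG1 is a long mucin-like membrane protein whose sialylated form is an antigen of mesothelioma and whose tail binds the scaffold KRIT1. HEG1 (ENSG00000173706, chromosome 3, 124965710 to 125055958, minus strand) had 5600, 6743 and 5209 counts in sgCtrl and 5410, 4638 and 3829 in sgNF2-1. After scaling these were 355, 411 and 343 CPM against 307, 300.5 and 269 CPM, and the groups did not overlap. The mean fell 1.27-fold, from 370 ± 36.0 to 292 ± 20.6 CPM (SD, n = 3 each), with a log2 fold change of -0.34 (SE 0.09, 95% interval -0.52 to -0.16, adjusted p = 0.0036 by edgeR). Without sgCtrl replicate 2, the highest library, the log2 fold change was -0.26 and no longer passed (adjusted p = 0.051 by edgeR). Its change also lay within a fold limit of 0.5 on the log2 scale.

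UPK3B belongs to the uroplakin family of membrane proteins and marks mesothelial cells outside the urothelium. UPK3B (ENSG00000243566, chromosome 7, 76510428 to 76516521, plus strand) had 31, 46 and 33 counts in sgCtrl and 16, 44 and 23 in sgNF2-1. In CPM it measured 1.97, 2.80 and 2.17 against 0.909, 2.85 and 1.62. The groups overlapped, because sgNF2-1 replicate 2 was the highest library of all. The log2 fold change of -0.38 (SE 0.35, 95% interval -1.11 to 0.35, adjusted p = 0.43 by edgeR) did not pass, and the interval held large decreases and a small increase. It was -0.04 without sgNF2-1 replicate 1, -0.22 without sgCtrl replicate 2 and -0.89 without sgNF2-1 replicate 2, none of which passed. Its relative UPK3BL1 was at 0 counts in all libraries, and a further relative, UPK3BL2, had no row under that name. How reads matching more than 1 of these genes were counted is not stated, so the UPK3B values carry any such uncertainty.

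LRRN4, a leucine-rich repeat membrane protein used as a mesothelial marker, had 5, 0 and 5 counts in sgCtrl and 2, 4 and 1 in sgNF2-1. With 1 library at 0 and none above 5 counts, no test was made and no fold is given.

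**Figure D2:**
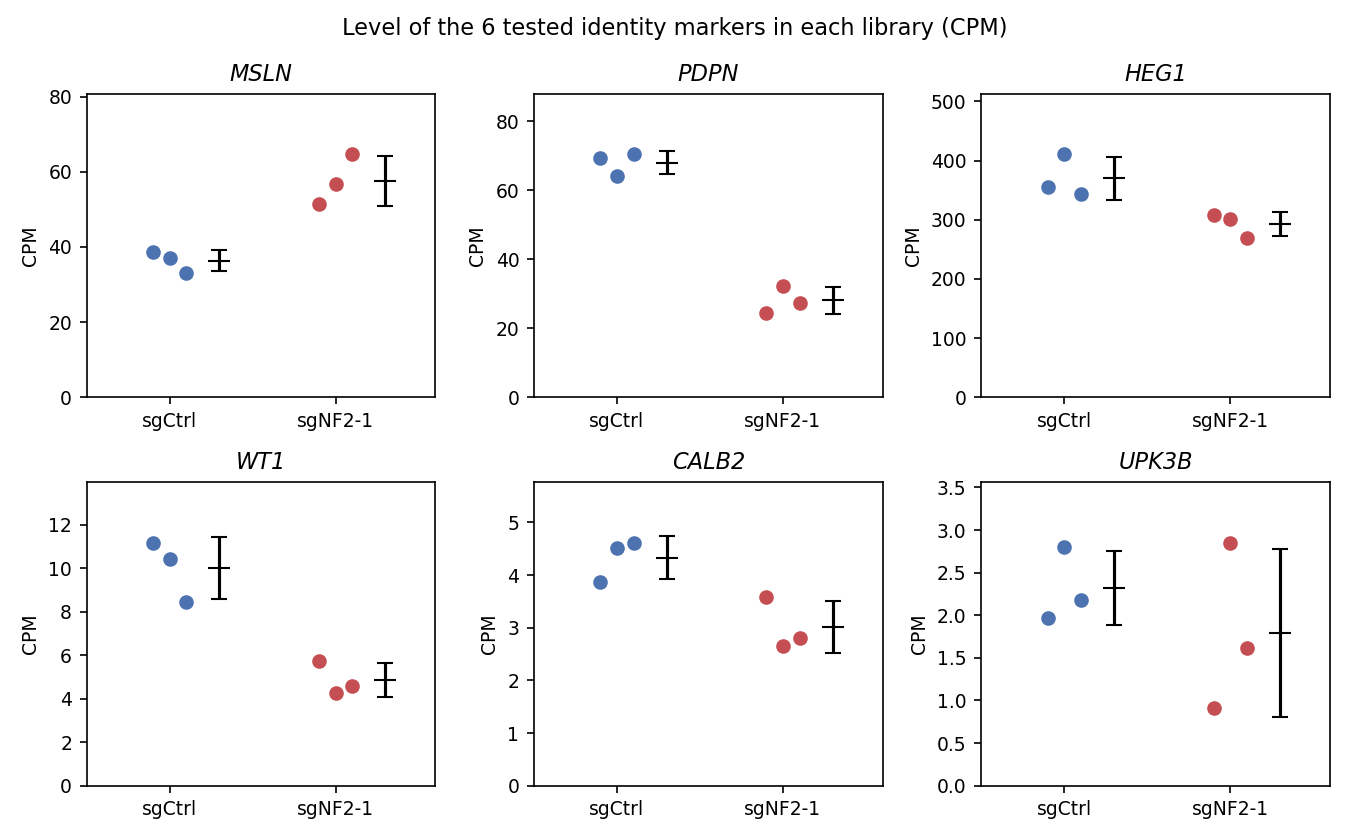
CPM (linear axes from 0) of the 6 tested markers in each library, with the mean and SD of the 3 libraries of a group as a black bar beside them. For MSLN all sgNF2-1 libraries lie above sgCtrl, for PDPN, HEG1, WT1 and CALB2 all lie below, and for UPK3B the groups overlap.

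WT1 is a zinc-finger transcription factor of the embryonic and adult mesothelium. WT1 (ENSG00000184937, chromosome 11, 32387775 to 32435630, minus strand) had 176, 171 and 128 counts in sgCtrl and 101, 66 and 65 in sgNF2-1. The CPM were 11.2, 10.4 and 8.43 against 5.74, 4.28 and 4.56, and no sgNF2-1 library reached the sgCtrl range. Its mean fell 2.06-fold, from 10.0 ± 1.41 to 4.86 ± 0.775 CPM (SD, n = 3 each). The log2 fold change was -1.04 (SE 0.18, 95% interval -1.40 to -0.67, adjusted p = 6.8e-05 by edgeR), at rank 456 from the lowest. The antisense gene WT1-AS, which starts near WT1 on the opposite strand and shares 113 bases of genome with it, had 18, 34 and 47 counts in sgCtrl and 11, 13 and 18 in sgNF2-1. WT1-AS also fell, with a log2 fold change of -1.22 (SE 0.40, adjusted p = 0.021 by edgeR), although its groups overlapped at 1 library. Whether reads were counted by strand is not stated, and reads in the shared bases may have been counted for either gene.

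Calretinin (CALB2) is an EF-hand calcium-binding protein and a standard antigen of mesothelioma diagnosis. CALB2 (ENSG00000172137, chromosome 16, 71358713 to 71390438, plus strand) had 61, 74 and 70 counts in sgCtrl and 63, 41 and 40 in sgNF2-1. Scaled to library size these were 3.87, 4.51 and 4.61 CPM against 3.58, 2.66 and 2.81 CPM. The groups did not overlap, but sgNF2-1 replicate 1 came close to sgCtrl replicate 1. The log2 fold change was -0.51 (SE 0.23, 95% interval -0.99 to -0.04), with an adjusted p = 0.088 by edgeR that did not pass. By an unadjusted p under 0.05 with a log2 fold change beyond 0.5, CALB2 would pass and HEG1 would not.

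The remaining markers are KRT5, a keratin of basal and mesothelial cells, and ITLN1, a secreted lectin of normal mesothelium. KRT5 had 0, 0 and 2 counts in sgCtrl and 3, 3 and 0 in sgNF2-1. ITLN1 had 0 counts in all 6 libraries, as did its relative ITLN2. For both markers the levels were at or under the floor of 3 counts in each library, and differences were not detectable at this depth.

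Ratios taken within a library do not depend on library size. The ratio of MSLN to PDPN in FPKM was 0.809, 0.840 and 0.682 in sgCtrl and 3.04, 2.54 and 3.42 in sgNF2-1. MSLN was thus under PDPN in all sgCtrl libraries and over it in all sgNF2-1 libraries, with means of 0.777 ± 0.084 and 3.00 ± 0.439 (SD, n = 3 each). HEG1 to MSLN went from 2.63 ± 0.246 to 1.33 ± 0.237, and HEG1 to PDPN from 2.04 ± 0.309 to 3.94 ± 0.651. MSLN to WT1 showed a wide gap too, 5.87 ± 0.388 against 19.5 ± 4.46. CALB2 to WT1 was 1.07 ± 0.243 against 1.50 ± 0.010. For each of these 5 ratios, which share genes, the groups did not overlap and a two-sided exact permutation test gave p = 0.10 before any adjustment, its smallest possible value. Summed over the 10 markers, sgCtrl libraries had 68.4 to 75.4 FPKM and sgNF2-1 libraries 57.8 to 61.2 FPKM. The share of MSLN in that sum was 17.9% to 20.1% in sgCtrl and 32.6% to 40.0% in sgNF2-1, and that of PDPN was 21.8% to 26.3% and 10.7% to 13.4%.

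**Figure D3:**
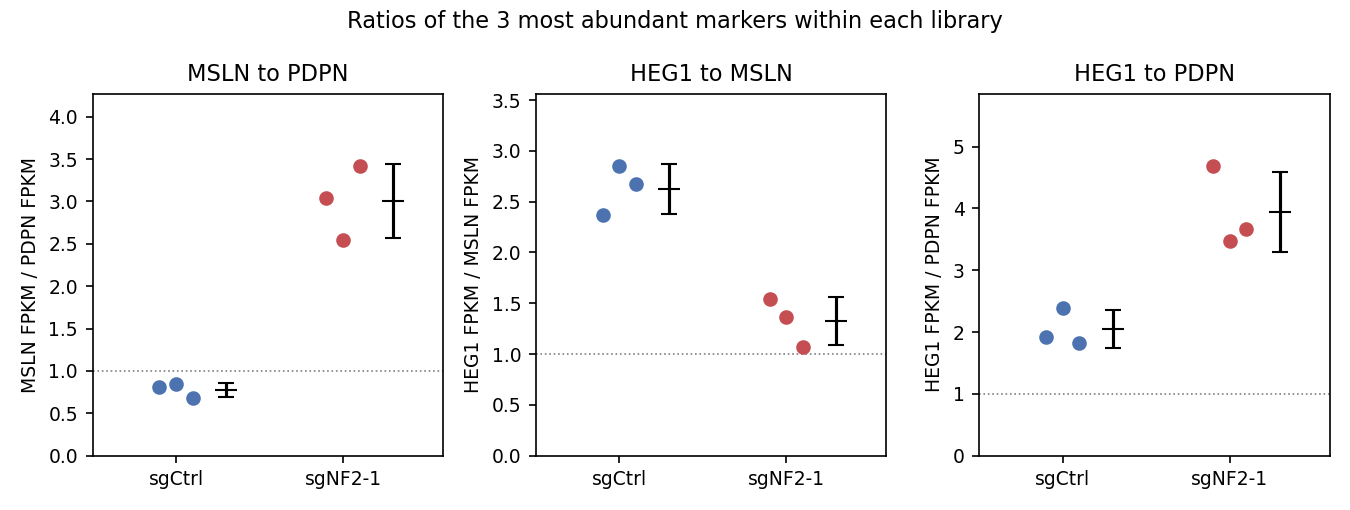
Ratio of FPKM between the 3 most abundant markers in each library, with the mean and SD of each group in black and the dotted line at a ratio of 1. The MSLN to PDPN ratio crosses 1 between the groups, from 0.682 to 0.840 in sgCtrl to 2.54 to 3.42 in sgNF2-1.

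The list of 28 further mesothelial genes (keratins, transcription factors, matrix and secreted proteins) had 18 tested genes. Of these, 4 were higher, 7 lower and 7 did not pass, with a median log2 fold change of -0.26. Over all tested genes, 17.7% were higher and 16.6% lower. KRT7, a simple-epithelial keratin, rose from 54.6 to 125 FPKM (log2 fold change 1.20, SE 0.09, adjusted p = 2.5e-10), whereas KRT19, a keratin of the same type of epithelium, fell from 229.8 to 119 FPKM (log2 fold change -0.94, SE 0.10, adjusted p = 3.6e-08). Complement C3 fell by 1.17 on the log2 scale (SE 0.08, adjusted p = 1.0e-10 by edgeR). SPP1, which encodes osteopontin, had 33, 22 and 33 counts in sgCtrl and 3, 4 and 5 in sgNF2-1 (log2 fold change -2.83, SE 0.47, adjusted p = 4.5e-05). It met the count filter through sgCtrl only, and its sgNF2-1 counts lay near the floor of 3 counts. Where at least 10 counts were required in every library, SPP1 was left out and 6 genes of the list were lower. The most abundant gene of the list was VIM, the mesenchymal filament vimentin, at 418 and 476 FPKM, and its log2 fold change of 0.20 did not pass (adjusted p = 0.072). TCF21, ALDH1A1, RSPO1 and PLA2G2A, 4 genes of the list named after their values were seen, were at 0 counts in every library.

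Among the relatives and binding partners of the markers, 33 had a row and 19 were tested. Of the 19, 3 were higher, 5 lower and 11 did not pass (median log2 fold change -0.16). Over all tested genes, 17.7% were higher and 16.6% lower. EZR, which encodes ezrin, was the most abundant and rose from 143 to 222 FPKM (log2 fold change 0.65, SE 0.08, adjusted p = 5.8e-07 by edgeR). PAWR, a partner of the WT1 protein, also rose (log2 fold change 0.67, SE 0.08, adjusted p = 1.0e-06). KRT15, a type I basal keratin, fell from 408, 363 and 367 counts to 144, 154 and 154 (log2 fold change -1.32, SE 0.13, adjusted p = 3.0e-08). The partners of PDPN and HEG1 that follow were chosen after their values were seen. CD44, which binds podoplanin, fell by 0.33 on the log2 scale (adjusted p = 0.0027), while MSN and RDX had log2 fold changes of 0.01 and 0.02 and did not pass. KRIT1, CCM2 and PDCD10, the cerebral cavernous malformation proteins linked to HEG1, had log2 fold changes of -0.33, 0.09 and 0.12, and none passed (adjusted p = 0.20, 0.56 and 0.44 by edgeR).

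**Figure D4:**
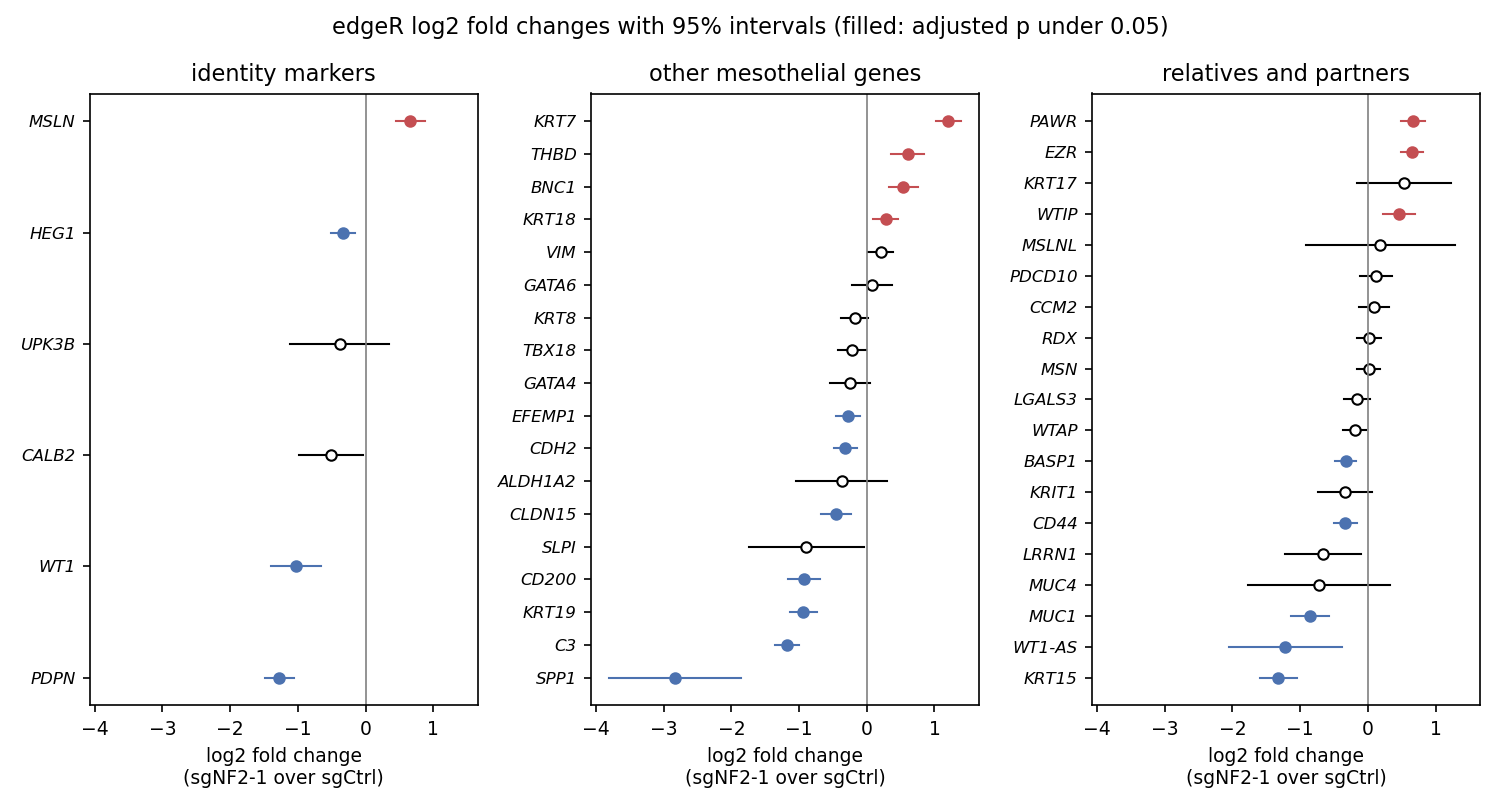
edgeR log2 fold change of sgNF2-1 over sgCtrl (points) with 95% intervals (lines) for the tested identity markers, other mesothelial genes and relatives or partners. Filled red points are higher and filled blue points lower at an adjusted p under 0.05, and open points did not pass. Each panel holds genes on both sides of 0.

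Carcinoma antigens and markers of other cells were read as a check on the label pleural mesothelioma. HEG1, PDPN, MSLN, CALB2 and WT1 were present in every library, whereas MUC16, KRT5, LRRN4 and ITLN1 were absent or nearly so. Of 14 carcinoma genes, 5 were at 0 in every library (CEACAM5, CEACAM6, NKX2-1, TFF3 and SOX2). FUT4, which makes the CD15 epitope, fell by 1.02 on the log2 scale (SE 0.25, adjusted p = 0.0025 by edgeR). Of 16 fibroblast, endothelial and leukocyte genes, DCN, LUM and PTPRC were at 0 in every library. The summed level of these 16 was 12.0 to 15.2 FPKM in sgCtrl and 2.94 to 3.13 FPKM in sgNF2-1, and most of the sgCtrl sum was COL1A2 alone, at 8.55 to 11.6 FPKM in sgCtrl and 1.14 to 1.50 FPKM in sgNF2-1. Of the 5 tested (median log2 fold change -2.28), 4 fell, where 16.6% of all tested genes were lower. The 4 were COL1A1 and COL1A2, the chains of type I collagen (log2 fold change -2.95 for each, adjusted p = 4.0e-09 and 2.2e-15 by edgeR), PECAM1 (-2.28, adjusted p = 1.7e-07) and THY1 (-0.52, adjusted p = 0.012). These genes moved in the same direction as PDPN, WT1 and HEG1, and their part in the marker differences was not tested.

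The genes nearest the markers were compared as a description of position. Among the 10 closest tested genes, those around MSLN had a median of 0.15 (log2 fold change), and the 3 of them that passed were higher. Around WT1 the median was -0.20, with 1 higher and 3 lower, WT1-AS among them. Around PDPN it was 0.0027, with 1 higher and 3 lower, and around HEG1 0.01, with 3 higher and 3 lower. Around CALB2 it was 0.09, with 3 higher and 1 lower, and around UPK3B 0.19, with 4 higher and 1 lower. Across all tested genes 34.3% passed, 17.7% higher and 16.6% lower, so the 3 of 10 around MSLN were near that share. Whether any of these regions differed from that share was not tested.

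Over the 6 libraries, the 3 genes whose log2 CPM followed MSLN most closely were MCM7, a subunit of the replicative helicase (Pearson r = 0.999), TMEM255B (r = 0.998) and PPP1R18 (r = 0.998). Those closest to WT1 were DNAJB11, an endoplasmic reticulum chaperone cofactor (r = 0.998), AP006623.1 (r = 0.998) and DIDO1 (r = 0.997). The search ran over 13136 genes, and each correlation includes the difference between the groups, so these values are a description of 6 libraries that fall into 2 groups.

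**Figure D5:**
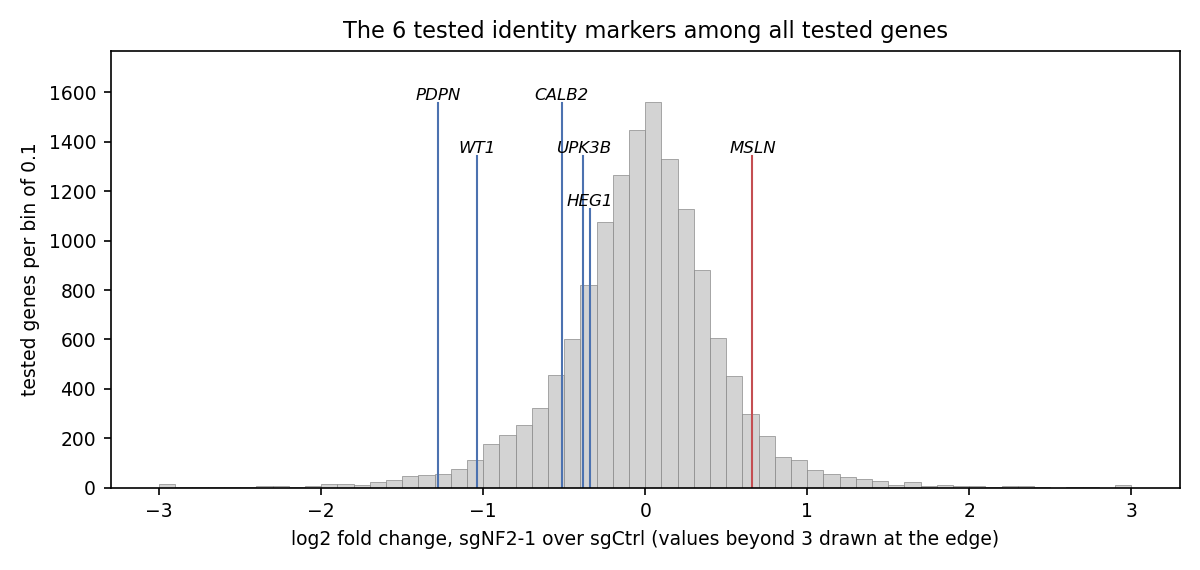
Histogram of the log2 fold changes of all 14179 tested genes (bins of 0.1, values beyond 3 drawn at the edge) with the 6 tested markers as lines. MSLN at 0.66 lies on the upper side and PDPN at -1.28 and WT1 at -1.04 in the lower tail.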

How the data were processed

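RNA libraries of H2452 cells, 3 sgCtrl and 3 sgNF2-1, were grouped and numbered by their titles. Per gene, the authors deposited a raw count and an FPKM value derived from it. The submitters' processing notes list HISAT2, StringTie 1.3.3b, featureCounts 1.5.0-p3 and the build hg38. Their roles and the strand setting are not given in the sources used here. The deposited gene length, another column, underlies FPKM. Within 1%, FPKM equalled count over length and 1 depth per library for 100% of genes checked.

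Counts were filtered (filterByExpr, minimum 10, total 15), TMM-normalized and tested across all genes with edgeR 4.0.16's quasi-likelihood test in R 4.3.3, adjusted by Benjamini-Hochberg. The fit gave the log2 fold changes and 95% intervals. FPKM served for levels between genes and was not tested. Scripts were tested on simulated data.

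The markers and gene lists were chosen with earlier results of these data known. Named were all markers, and up to 4 genes per other list with the largest passing change and a mean CPM of at least 1. Also named were the highest by FPKM, the relatives or overlapping genes WT1-AS, UPK3BL1, UPK3BL2 and ITLN2, NF2, and the 3 genes most correlated with MSLN and with WT1. Some results on the carcinoma and other-cell lists are left out of the text. Alternatives were DESeq2 1.42.0, its size factors or library totals in edgeR, other filters, a replicate block, a fold limit of 0.5 and leaving out each library. Total counts of 14782423 to 17416463 put 3 counts at 0.170 to 0.211 CPM. Same-group libraries had a chi-square per degree of freedom of 5.18 to 12.8, above counting noise, so none was a repeat deposit.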

Additional observations from a re-analysis of the deposited data

How the results depend on the processing

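Across 17 results and 224 alternative values, 221 kept their direction and side of the threshold, or, for counts, stayed within 1.5 times. None reversed. With the fold limit of 0.5 added to the adjusted p, 4 of the further mesothelial genes were lower instead of 7, and 3 of the relatives and partners instead of 5, since that limit removes passing genes with small changes. It left 2 lower markers, PDPN and WT1, without HEG1. With an unadjusted p and the same limit 3 markers were lower, PDPN, WT1 and CALB2, so CALB2 took the place of HEG1. HEG1 ranged from -0.39 to -0.26 on the log2 scale as libraries were left out and among these lost its call without sgCtrl replicate 2. The same omissions gave 0.58 to 0.74 for MSLN, -1.39 to -1.18 for PDPN, -1.18 to -0.95 for WT1, -0.66 to -0.43 for CALB2 and -0.89 to -0.04 for UPK3B. Over all alternatives the adjusted p of CALB2 was 0.068 to 0.24 and that of UPK3B 0.087 to 0.94 (edgeR or DESeq2). Replicate numbers did not pair the samples: deviations of libraries with the same number correlated at -0.032, 0.057 and 0.050. The fit with a replicate block called 5199 genes instead of 4866, gave -1.04 for WT1, and changed no call of a marker. Precision is limited for UPK3B and CALB2, with 16 to 74 counts per library, and differences of LRRN4, KRT5, MUC16 and ITLN1 could not be measured.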
